A study of Mus musculus with 764 samples.

Results

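Transcripts of 7 secreted ligands were followed in individual CD4+ T cells, sorted by a reporter of Il10 from the small intestine and the spleen of mice. These were the chemokine genes Ccl3, Ccl4, Ccl5, Xcl1 and Ccl1 and the growth factor genes Csf1 and Csf2, chosen by gene symbol among 23997 gene rows, and all 7 were found. The cells came from IL-10eGFP Foxp3mRFP double reporter mice, in which green and red fluorescent proteins mark transcription of Il10 and Foxp3. All mice had received an antibody against CD3, a subunit of the T-cell receptor complex, by repeated intraperitoneal injection. No untreated cells were sequenced in these libraries, so the treatment is common to both tissues. eGFP+ CD4+ T cells were sorted with Foxp3+ cells included, and each cell was sequenced by SMART-seq2, a full-length cDNA protocol for single cells. Neither the animals nor their ages were given per cell, so each tissue counted as 1 sample without replicates, and no p-value is given.

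Chemokines are small proteins that attract leukocytes through G protein-coupled receptors. CCL3, CCL4 and CCL5 are inflammatory chemokines, and activated T cells and natural killer cells are a known source. XCL1 acts on XCR1 of cross-presenting dendritic cells, and CCL1 on CCR8. CSF1 and CSF2 are growth factors of macrophages and of granulocytes and macrophages, through which T cells act on myeloid cells.

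After removal of cells with low read totals and of cells called S or G2M, 72.1% of the small intestine cells and 69.5% of the spleen cells were kept, with median totals of 324546 and 353525 reads. The spleen cells filled 3 sets of wells, namely plate p1 columns 1 to 12, p1 columns 13 to 24 and plate p2. The small intestine cells lay on p2 as well, in other columns, so that tissue and well position cannot be told apart. The spleen sets were not alike. At least 10 Foxp3 reads were found in 54.5% of the cells of p1 columns 1 to 12, 13.1% of p1 columns 13 to 24 and 4.10% of p2, and in 3.65% of the small intestine cells. Tcf7, a transcription factor of naive and memory T cells, was at that level in 20.5%, 33.1% and 67.2% of these spleen sets. At least 10 reads of Cd3e were found in 100% of the kept cells and of Cd4 in at least 98.5% in each tissue. Of 26 marker genes of B, myeloid, epithelial and mast cells and basophils measured, 4 (Cd79b, Cybb, Epcam and Kit) passed the limit of 10 CPM used below. Kit reached 10 reads in 8.03% of the cells from the small intestine and none from the spleen, and Cybb in 2.92% and 11.3%. Transcript levels are given as CPM, the reads of a gene per 1000000 gene reads of that cell. A cell was counted as having a ligand at 10 or more reads. Intervals are 95% exact binomial intervals that cover counting error only.

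RefSeq promoter windows were at hand for 5 of the 7 genes (Ccl3, Xcl1, Ccl1, Csf1 and Csf2). Those of Ccl3 and Csf1 are shown because these were the ligands with a window that were found in many cells. The 250 bases before the annotated start are written 5′ to 3′ on the strand of the gene (minus strand, GRCm38.p6), at chr11:83649379-83649628 for Ccl3 and chr3:107760470-107760719 for Csf1. Capitals mark GGAAA or its reverse complement, the core letters of the binding motif of NFAT, a transcription factor activated by T-cell receptor signalling.
Ccl3: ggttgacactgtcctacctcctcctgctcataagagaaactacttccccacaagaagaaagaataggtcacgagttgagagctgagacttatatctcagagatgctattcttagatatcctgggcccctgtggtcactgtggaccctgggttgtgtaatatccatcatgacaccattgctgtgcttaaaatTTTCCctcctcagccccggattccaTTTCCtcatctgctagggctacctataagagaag
Csf1: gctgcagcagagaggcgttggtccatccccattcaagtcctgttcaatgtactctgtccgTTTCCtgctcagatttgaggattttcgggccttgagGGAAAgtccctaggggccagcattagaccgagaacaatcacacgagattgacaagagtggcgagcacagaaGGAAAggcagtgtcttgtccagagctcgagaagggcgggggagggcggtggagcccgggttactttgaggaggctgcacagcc
GGAAA was present 2 times before Ccl3, 3 times before Csf1, 1 time before Xcl1, 3 times before Ccl1 and 2 times before Csf2. Since 55.6% of 32851 mouse promoter windows of this length hold these letters, the matches are a description only.

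Ccl5 had the highest mean of the 7 ligands in the small intestine and in 2 of the 3 spleen sets, and was far higher in the small intestine. In p1 columns 1 to 12 the mean of Ccl4 was above it (1276 and 816 CPM). Its mean was 12030 CPM in small intestine cells, which ranged from 0 to 53383 CPM around a median of 8653 CPM (SD over cells 11956). In the spleen the mean was 1465 CPM, with a median of 3.78 CPM and a highest cell at 42422 CPM. The means of the spleen sets were 816, 2080 and 1436 CPM in the order given above, and all lay below the small intestine. The log2 ratio of means, small intestine over spleen with 1 CPM added to each, was 3.04, and 3.88, 2.53 and 3.07 against the single sets. Ccl5 alone took 1.21% of all gene reads of the small intestine cells and 0.166% of those of spleen cells. At least 10 Ccl5 reads were found in 77.4% of the small intestine cells (interval 69.4% to 84.1%), while the spleen held 25.3% of such cells (interval 21.1% to 29.9%). Among the cells with the transcript, the median reached 11776 CPM for the small intestine against 1866 CPM for the spleen (622, 3270 and 1913 CPM in the sets). Thus the share of cells and the level per positive cell were both higher in the small intestine, by 3.06 and 6.31 times. Against the single sets the level was 18.9, 3.60 and 6.16 times as high.

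A further 43.9% of spleen cells had 1 to 9 Ccl5 reads. This share was 33.3% and 43.4% in the p1 sets and 55.7% in p2, the plate that also held the small intestine cells. Gzma, the granzyme A gene, which was present at 36732 CPM in the small intestine, had 1 to 9 reads in 75.4% of p2 spleen cells and in 1.52% and 4.83% of the p1 sets. Gzmb and Nkg7 also had their highest such share in p2 (55.7% and 36.1%), but Ccl4, Ccl3 and Csf1 did not. For Ccl4 it was 22.1% in p2 against 34.8% and 38.6% in the p1 sets. For Ccl3 it was 13.9% against 14.4% and 11.03%, and for Csf1 4.10% against 6.06% and 13.1%. The part of plate p2 in these low Ccl5 counts was not tested. With a limit of 1 read in place of 10, Ccl5 was counted in 98.5% and 69.2% of the cells. At 50 reads the shares were 76.6% and 21.1%.

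Ccl4, like Ccl3 a product of T-cell receptor stimulation in T cells, was found in many more small intestine cells at a similar mean. Small intestine cells averaged 1657 CPM (median 383.4 CPM, highest cell 19756 CPM) and spleen cells 1115 CPM (median 2.66 CPM, highest cell 25227 CPM). The spleen sets had means of 1276, 1334 and 682 CPM, so that the log2 ratio was 0.57 over all spleen cells, 0.38 and 0.31 against the p1 sets and 1.28 within p2. At least 10 reads were found in 62.04% of the small intestine cells (interval 53.4% to 70.2%), against 24.3% in the spleen (interval 20.2% to 28.8%). In positive cells the order was the other way round, with medians of 1422 CPM for the small intestine against 2789 CPM for the spleen.

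Ccl3 showed this opposition of share and level most clearly. It was present at 10 or more reads in 35.8% of the small intestine cells (interval 27.8% to 44.4%), against 18.5% in the spleen (interval 14.9% to 22.7%), where the sets held 18.2%, 21.4% and 15.6%. Its mean was nevertheless lower in the small intestine, at 211.7 CPM against 365.3 CPM, with spleen sets at 302.2, 424.4 and 363.3 CPM. The median cell had no read in either tissue, and the highest cells were at 6842 and 11354 CPM. Positive small intestine cells had a median of 183.7 CPM (quartiles 96.6 and 904 CPM) and positive spleen cells one of 1079 CPM (quartiles 301.4 and 2902 CPM). The medians of positive cells in the spleen sets were 797, 1154 and 1142 CPM, all above the small intestine. At a limit of 50 reads the shares came close together, at 18.98% and 16.04%. The log2 ratio of means was -0.78 (-0.51, -0.9997 and -0.78 against the sets), while the median gene was at -0.21.

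**Figure D1:**
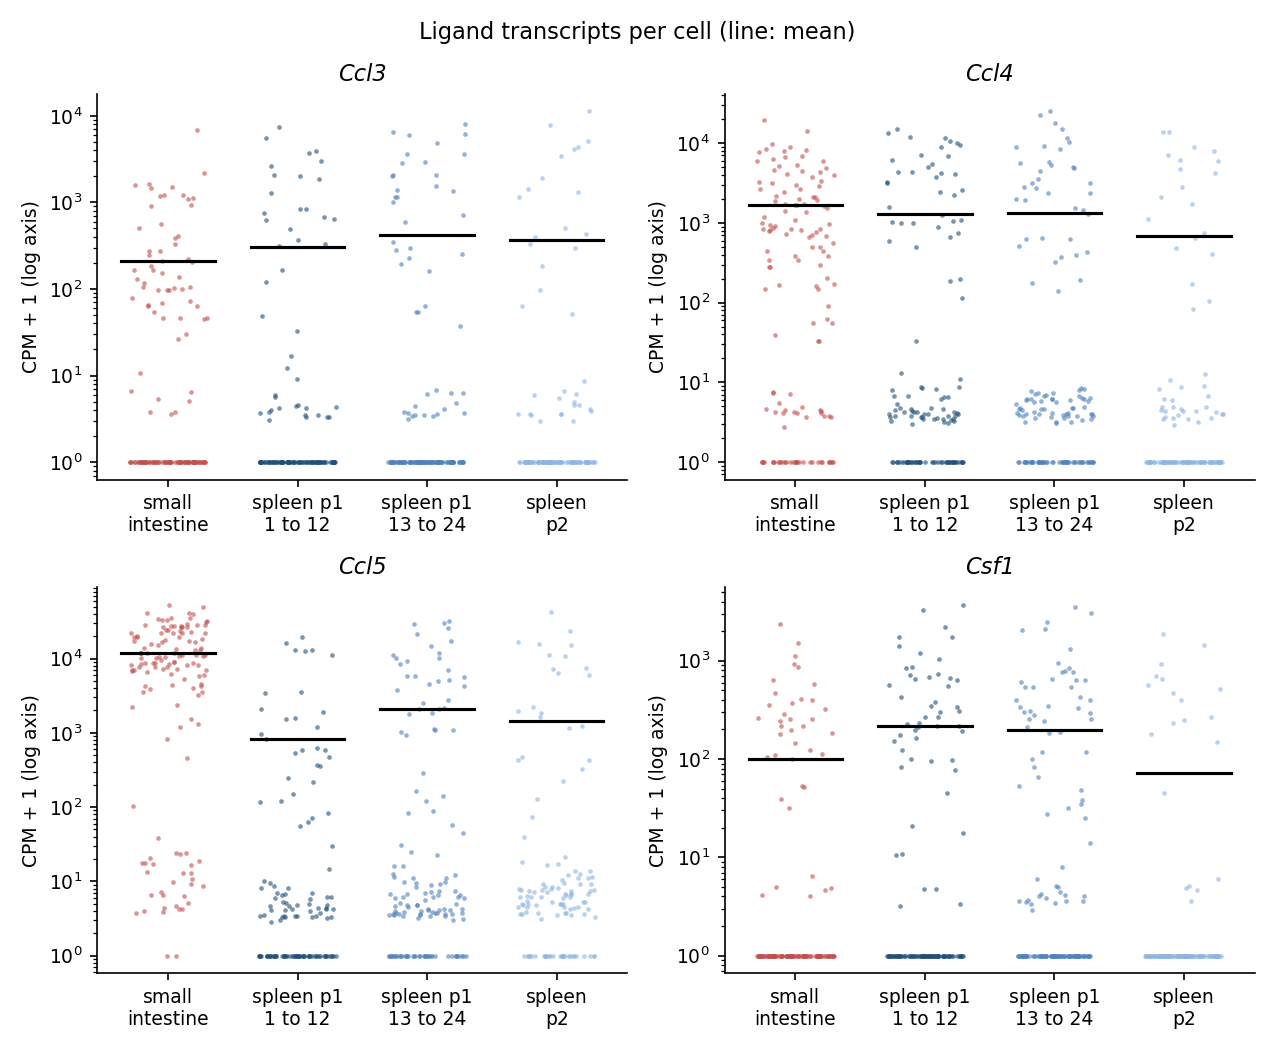
CPM + 1 of Ccl3, Ccl4, Ccl5 and Csf1 on a log axis, with 1 point per kept cell in the small intestine (red) and the 3 spleen sets (blue) and a line at the mean. Positive cells form a band apart from cells with 0 or few reads, and for Ccl3 the small intestine band holds more cells but lies lower than in the spleen.

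Of the 4 ligands found in many cells, Csf1 had the widest spread between the spleen sets (SD of the log2 ratios against the sets 0.88, against 0.24 for Ccl3, 0.54 for Ccl4 and 0.68 for Ccl5). At least 10 reads were found in 24.1% of the small intestine cells (interval 17.2% to 32.1%), against 26.1% in the spleen (interval 21.8% to 30.7%). In the spleen sets the shares were 32.6%, 31.7% and 12.3%, so that the small intestine lay between p2 and the p1 sets. Small intestine cells averaged 98.3 CPM and spleen cells 164.1 CPM (216.2, 195.2 and 70.7 CPM by set). The highest small intestine cell was at 2338 CPM and the highest spleen cell at 3725 CPM, and the median cell of both tissues had no read. The log2 ratio was -0.73 over all spleen cells, with -1.13 and -0.98 against the p1 sets and 0.47 within p2, and no direction can be given. Scaled to the length of the gene model, mean levels in the spleen were 39.3 CPM per kb for Csf1, 476.9 for Ccl3, 1690 for Ccl4 and 2754 for Ccl5. In the small intestine they were 23.5, 276.4, 2510 and 22613 CPM per kb. The order of the 4 genes was thus the same in the small intestine and over all spleen cells. In p1 columns 1 to 12 Ccl4 stood above Ccl5, at 1933 and 1535 CPM per kb. The SD over cells exceeded the mean for each of them except Ccl5 in the small intestine.

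Ccl1, Xcl1 and Csf2 were found in few cells. Ccl1 had no read in the small intestine, where 0 cells allows a share of up to 2.19%. In the spleen it had 10 or more reads in 8 cells (2.01%, interval 0.870% to 3.91%), of which 1, 5 and 2 lay in the sets. The 3 highest of these had 3028, 2103 and 844 reads and the lowest 3 had 28, 22 and 16, and 5 cells carried 98.8% of the 6278 reads. Relative to a floor of 3 reads over all small intestine cells, the summed level was at least 666.5 times higher in the spleen, and at least 18.3 times higher within p2. This bound covers counting error only and rests on few cells, and the intervals of the shares of cells overlapped between the tissues. Xcl1 likewise had no read in the kept small intestine cells and 10 or more reads in 3 spleen cells (759, 69 and 34 reads, a share of 0.752%, interval 0.155% to 2.18%). Csf2 was at that level in 1 small intestine cell (94 reads, 311.4 CPM) and in 3 spleen cells (635.7, 374.995 and 64.98 CPM). The shares of Xcl1 and Csf2 did not differ between the tissues beyond their intervals.

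**Figure D2:**
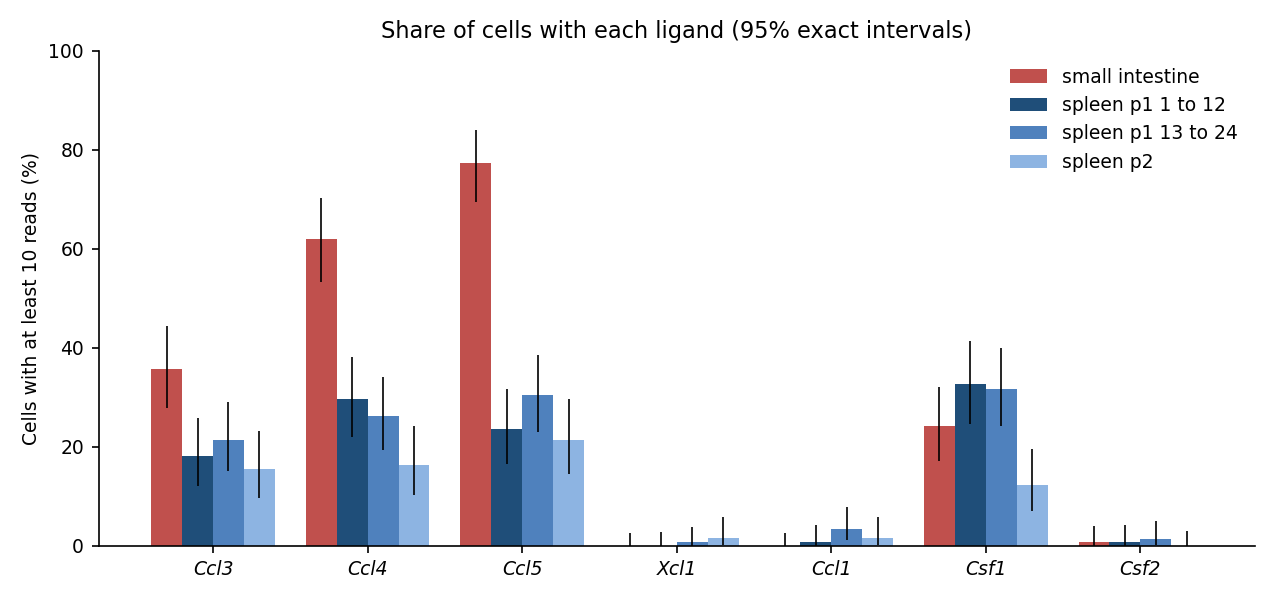
Share of kept cells with at least 10 reads of each of the 7 ligands (bars, in percent) in the small intestine and the 3 spleen sets, with 95% exact binomial intervals. For Ccl3, Ccl4 and Ccl5 the small intestine bar is the highest, for Csf1 it lies between the p1 and p2 spleen sets, and Xcl1, Ccl1 and Csf2 stay at or below 3.45%.

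A gene was called when its log2 ratio was at least 1 in size and its small intestine mean lay beyond the means of all 3 spleen sets on the same side. Among 8364 genes with an average of the tissue means of at least 10 CPM, 7.50% were called higher and 15.1% called lower in the small intestine. Of the 7 ligands, 5 passed the CPM limit, 1 was called higher (Ccl5) and 1 lower (Ccl1). Xcl1 and Csf2 did not pass. The call of Ccl1 was lost in 4 of 16 alternatives, namely with the spleen limited to p2 or to p1 columns 1 to 12, without the 5 highest cells of each gene and without cells with a marker of another lineage. Its log2 ratio was -5.57, and -0.75 without the 5 highest cells. The median log2 ratio of the 5 ligands was -0.73, with Ccl1, which had no small intestine read, as the lowest member.

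The ligands were found together in the same cells. In the small intestine, 67.9% of cells (interval 59.4% to 75.6%) had 2 or more of the 7 ligands, with a mean of 2 per cell. In the spleen the share was 26.6% (interval 22.3% to 31.2%) and the mean 0.977, with shares of 29.5%, 31.03% and 18.03% in the sets. No ligand was found in 19.7% of cells of the small intestine, against 56.4% in the spleen. Cells with 4 ligands made up 10.2% and 10.03%. After each cell was thinned to 200000 reads, the shares with 2 or more ligands were 67.4% and 25.5%.

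**Figure D3:**
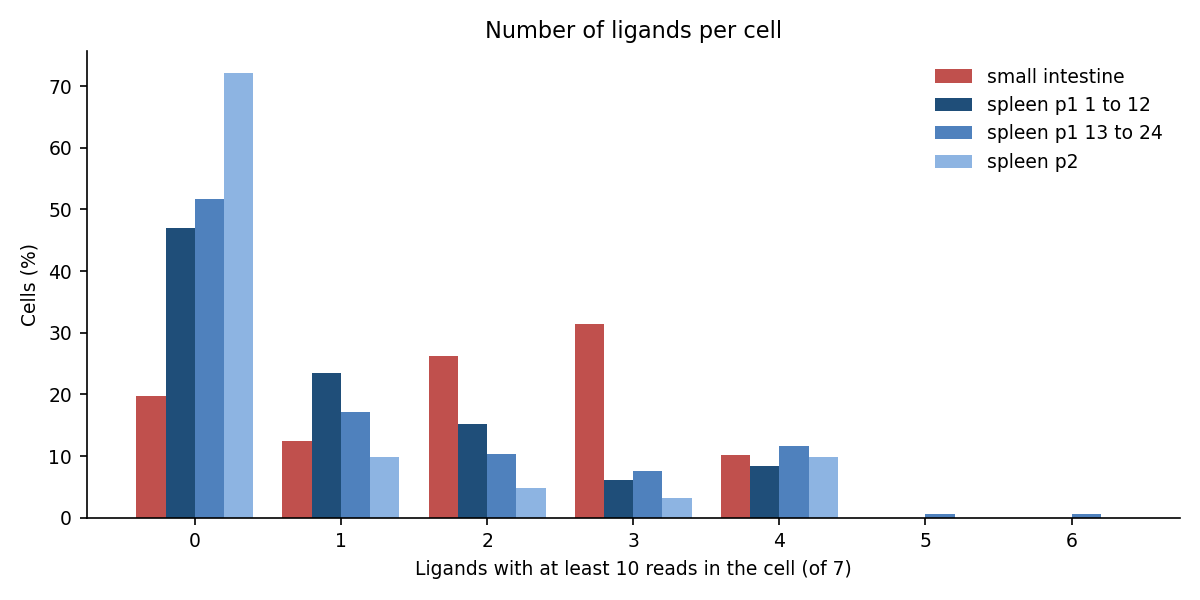
Distribution of the number of ligands with at least 10 reads in a cell (horizontal axis, of 7) as percent of kept cells in the small intestine and the 3 spleen sets. Spleen cells without a ligand are the largest class in each set, small intestine cells most often hold 3, and 1 spleen cell holds 6.

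Among small intestine cells the most frequent combination was Ccl3, Ccl4 and Ccl5 without another ligand (31 cells), followed by Ccl4 with Ccl5 (28 cells), none (27 cells), Ccl5 alone (15 cells) and all of Ccl3, Ccl4, Ccl5 and Csf1 (14 cells). In the spleen, 56.4% of cells had none, 40 had Csf1 alone, 36 had exactly Ccl3, Ccl4, Ccl5 and Csf1, 17 had Ccl5 alone and 15 had Ccl3, Ccl4 and Ccl5. In the small intestine all 49 cells with Ccl3 also had Ccl5, and 83 of 85 cells with Ccl4 did. Since Ccl5 was in 77.4% of these cells, the products of the shares already give 37.9 and 65.8 such cells, and the counts were 1.29 and 1.26 times as high.

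In the spleen the closest pair was Ccl3 with Ccl4, where 73 of 74 cells with Ccl3 also had Ccl4 (23 of 24, 31 of 31 and 19 of 19 in the sets). The product of the 2 shares would give 17.99 such cells, so that the count was 4.06 times as high. In the small intestine 45 of 49 cells had both, against a product of 30.4. The 2 genes are direct neighbours in the RefSeq gene order of chromosome 11, and Ccl5 lies further along the same stretch. Of the other chemokine genes between Ccl5 and Ccl3, Ccl9 had 10 or more reads in 0 small intestine and 3 spleen cells, and Ccl6 in 1 and 1. The gene spans of Ccl3 and Ccl4 overlap in this RefSeq table, and whether reads were shared between these 2 genes was not tested. Spearman rho of Ccl3 and Ccl4 was 0.45 over the small intestine cells and 0.58 over the spleen cells, which share plates and depth.

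In the spleen, Ccl5 was found in 57 of 74 cells with Ccl3 and in 69 of 97 cells with Ccl4, the latter being 21 of 39, 32 of 38 and 16 of 20 in the sets. These counts were 3.04 and 2.81 times the products of the shares. In cells with both Ccl4 and Ccl5, the median log2 ratio of Ccl4 over Ccl5 CPM was -3.38 in the small intestine and -0.40 in the spleen. It was 1.76 in p1 columns 1 to 12, the set with the most Foxp3, and -0.87 and -1.01 in the others. Csf1 was found both with and without these chemokines in the spleen. Of the spleen cells with Csf1, 42.3% had none of Ccl3, Ccl4 and Ccl5, against 6.06% of 33 small intestine cells. Among all kept cells, at least 1 of these chemokines was in 32.3% of the spleen and 78.8% of the small intestine cells. Cells without them were thus more frequent in the spleen in general. Csf1 was found in 67.9% of the 56 spleen cells with all of Ccl3, Ccl4 and Ccl5 and in 19.2% of the other spleen cells (small intestine, 31.1% and 20.7%).

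**Figure D4:**
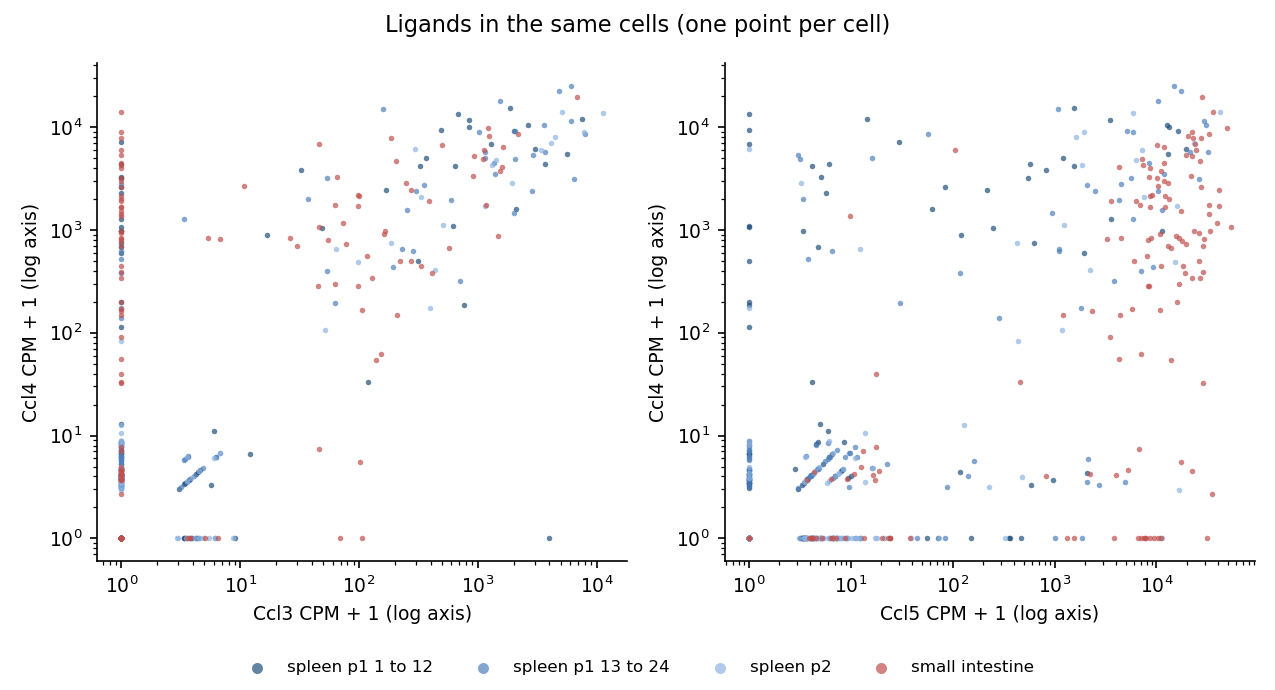
CPM + 1 of Ccl4 against Ccl3 (left) and against Ccl5 (right) on log axes, with 1 point per kept cell coloured by set. Cells with Ccl3 nearly all lie at high Ccl4, and at a given Ccl4 level small intestine cells (red) lie further right in Ccl5 than most spleen cells.

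The genes whose CPM followed each ligand most closely were ranked by the mean Spearman rho over the 4 sets, among 6101 genes with 10 reads in at least 10% of cells of each tissue. For Ccl3 these were Ccl4 (0.55), Ifng (0.48), Nkg7 (0.47), Ccl5 (0.36) and Plek (0.36). For Ccl4 they were Ccl3, Ccl5 (0.50), Nkg7 (0.44), Ifng (0.42) and Slamf7 (0.34). Ccl5 was followed by Ccl4, Nkg7 (0.44), Ccl3, Prf1 (0.36) and Ifng (0.34), and Csf1 by Nkg7 (0.33), Ifng (0.32), Plek (0.32), Cxcr6 (0.31) and Ccl3 (0.29). Nkg7, a protein of cytotoxic granules, and Ifng, the interferon-gamma gene, were in all 4 lists. Xcl1, Ccl1 and Csf2 were in too few cells to be ranked.

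Spleen cells with Ccl3 differed from the other spleen cells in effector and homing genes. Ifng was present in 81.1% of the 74 cells with Ccl3 (interval 70.3% to 89.3%) and in 13.2% of the others (interval 9.74% to 17.4%). Within the sets the shares were 66.7% and 11.1%, 87.1% and 18.4%, and 89.5% and 9.71%. Granzyme B (Gzmb) was at 72.97% and 24.6%, Nkg7 at 100% and 46.2%, and the chemokine receptor gene Cxcr6 at 83.8% and 30.2%. Havcr2, which encodes the co-inhibitory receptor TIM-3, was at 66.2% and 14.2%, and Il10 itself at 91.9% and 73.5%. In contrast, Tcf7 was at 5.41% and 47.1%, the lymph node homing receptor gene Ccr7 at 2.70% and 28% and the follicular homing receptor gene Cxcr5 at 16.2% and 48.3%. The intervals of these shares did not overlap. Apart from the values for Ifng within sets, the shares pool the spleen sets, which differ in Tcf7 and in the ligands. The part of the sets in these contrasts was not tested. Cells with Ccl4, Ccl5 or Csf1 had the same order for each of these genes. Cytokines were not all higher. Tnf was at 13.5% and 11.4%, and Il2 at 0% and 0.923%.

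Foxp3 did not follow the ligands evenly. In the spleen it was in 12.2% of cells with and 26.8% of cells without Ccl3, but in 25.8% and 23.5% for Ccl4, 20.8% and 25.2% for Ccl5 and 31.7% and 21.4% for Csf1. These shares pool the spleen sets, which differ in Foxp3 and in ligands such as Csf1 (32.6%, 31.7% and 12.3% of cells). The part of the sets in them was not tested. In p1 columns 1 to 12, where most Foxp3 cells lay, 21 of 39 cells with Ccl4 (53.8%) and 54.8% of those without had Foxp3, and 7 of 24 cells with Ccl3 (29.2%) and 60.2% of those without. When cells with any Foxp3 read were left out, the share of spleen cells with Ccl3 was 23.1%, and its log2 ratio was -1.19.

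Small intestine cells showed another contrast. Il17a, the signature cytokine of Th17 cells, was present in 64.5% of the 31 cells without Ccl5 (interval 45.4% to 80.8%) and in 2.83% of the cells with it (interval 0.587% to 8.05%). The shares without and with Ccl4 were 40.4% and 2.35%, and without and with Ccl3 25% and 2.04%. Itga1, an integrin of tissue-resident T cells, was in 54.7% of cells with Ccl5 and in 0 of 31 without, which allows a share of up to 9.68%. Itgae, the integrin chain that binds E-cadherin of epithelial cells, was in 73.6% and 12.9%, and perforin (Prf1) in 59.4% and 12.9%. Foxp3 was in 0% of cells with Ccl5 and 16.1% of cells without, and Il2ra in 26.4% and 58.1%. Ifng was in 67.9% and 38.7%. For Csf1 no gene of this list had intervals that lay apart in the small intestine. Il10 and Cxcr6, which went with the ligands in the spleen, did not differ beyond their intervals between small intestine cells with and without Ccl5 (Il10 96.2% and 93.5%, Cxcr6 82.1% and 80.6%).

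At least 10 reads of Cd8a or Cd8b1, the genes of the CD8 chains, were found in 27.4% of small intestine cells with Ccl5 and 3.23% of those without. For Ccl4 these shares were 31.8% and 5.77%. Their part in the result was not tested. Markers of B, myeloid, epithelial and mast cells were in 26.4% of small intestine cells with and 45.2% of those without Ccl5, and in 29.7% and 31.9% of spleen cells. Without all cells with such a marker, Ccl5 was in 82.1% and 25.9% of the cells of the tissues and its log2 ratio was 3.04.

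**Figure D5:**
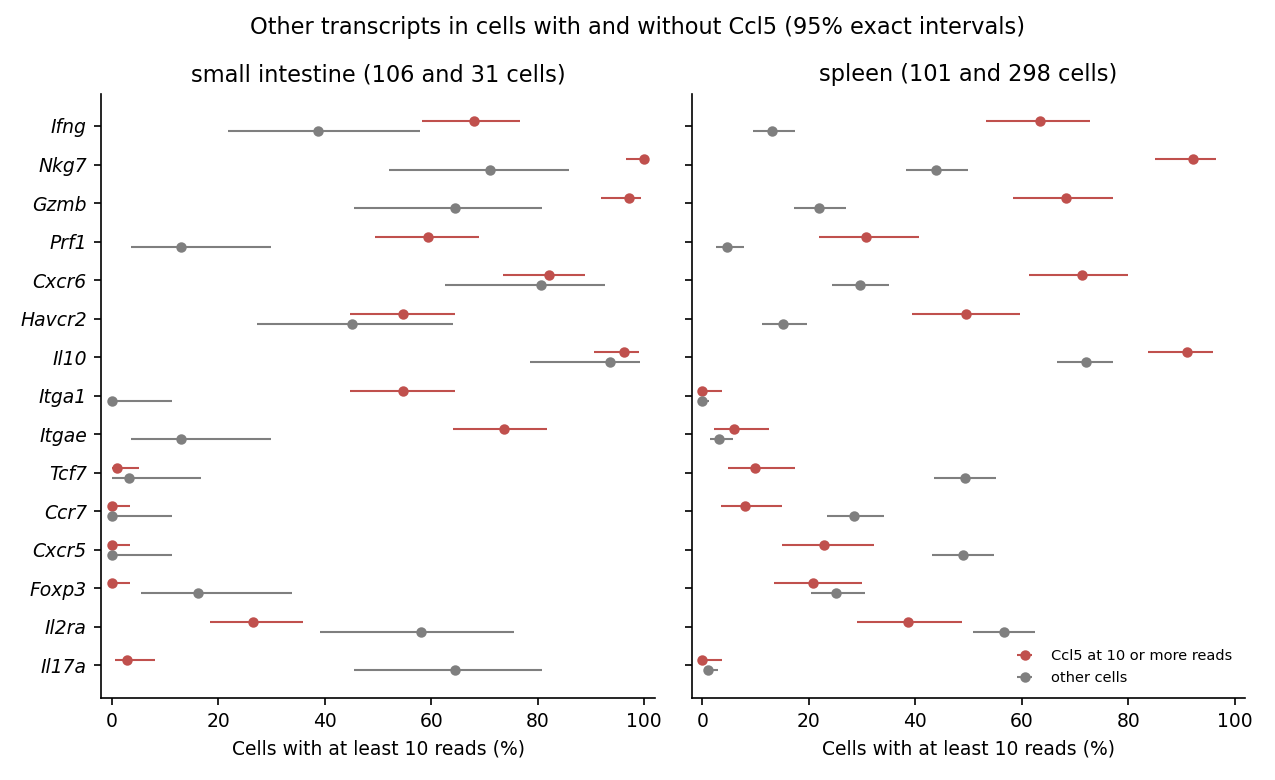
Share of cells with at least 10 reads of 15 other genes among cells with (red) and without (grey) at least 10 Ccl5 reads, in percent with 95% exact binomial intervals, for the small intestine (left) and the spleen (right). Ifng, Nkg7, Gzmb and Prf1 lie further right in cells with Ccl5 in both tissues, Il17a, Itga1 and Itgae separate the cells in the small intestine, and Tcf7, Ccr7 and Cxcr5 in the spleen.

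Some receptor genes of these ligands were compared in the same cells. Ccr1 and Sdc4 were called higher in the small intestine, and Ccr4 and Ccr8 lower. Against the p2 spleen cells alone, the log2 ratio of Ccr4 was -0.79, short of the limit of 1. Those of Ccr1, Sdc4 and Ccr8 were 5.25, 2.85 and -2.42. Ccr1, a receptor of CCL3 and CCL5, was mostly found in small intestine cells without Ccl5. It was in 4 cells with Ccl5 (3.77%, interval 1.04% to 9.38%) and in 21 of 31 cells without (67.7%, interval 48.6% to 83.3%). In the spleen it was rare in both, at 1.98% and 4.36%. Its log2 ratio between the tissues was 2.84. Ccr8, the receptor of CCL1, was lower in the small intestine with a log2 ratio of -4.44 (19.3 and 439.8 CPM). It was found in 7 of the 8 spleen cells with Ccl1 and in 43.2% of the other spleen cells. Csf1r, the receptor of CSF1, was in 0% of the small intestine cells and 1.003% of the spleen cells, and in none of the cells with Csf1 in either tissue. Csf2ra was in 2.19% and 4.01%.

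Few other chemokine genes passed the CPM limit, while more of the other growth factor and cytokine ligands did. Of 32 other chemokine genes, 3 passed the CPM limit and 1 was called higher, namely Ccl20, the ligand of CCR6, at 173.5 CPM over small intestine cells (7 cells) and 1.11 CPM over spleen cells (1 cell). Of 19 other growth factor and cytokine ligands, 7 passed, 2 were called higher (Areg and Tgfb3) and 2 lower (Lif and Osm). The shares called over all genes tested were 7.50% higher and 15.1% lower. Areg, which encodes the epidermal growth factor receptor ligand amphiregulin, was in 14.6% and 3.26% of cells with a log2 ratio of 4.91. Lif, a cytokine of the interleukin-6 family, had 10 reads in 0% of the small intestine cells, against 12.3% in the spleen (9.09%, 12.4% and 15.6% in the sets). Tgfb3 was close to the limit, with a log2 ratio of 1.05, which was 0.69 against the p2 spleen cells.

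Among 24 transcription factor genes linked to these ligands or to T-cell effector states, 23 passed, 6 were called higher and 2 lower. Over all genes tested, 7.50% were called higher and 15.1% lower. Bhlhe40, a regulator of cytokine expression in T cells, had the highest ratio of these at 3.26 (1132 and 117.4 CPM). Junb (2.31), Rora (2.02), Jun (1.64), Runx1 (1.17) and Runx3 (1.11), a factor of cytotoxic T cells, were also called higher. Nfatc1 (-1.10) and Gata3 (-1.06) were called lower. Against the p2 spleen cells alone, Nfatc1 (-0.76), Gata3 (-0.87) and Runx1 (0.88) fell short of the limit of 1. Bhlhe40, Junb, Rora, Jun and Runx3 stayed beyond it, at 3.09, 2.33, 1.88, 1.37 and 1.57. Tbx21, which encodes T-bet, was not called, at -0.90 (109.6 and 204.9 CPM). Of 16 early response genes of the T-cell receptor, 15 passed, 6 were called higher and 2 lower, with Nr4a1 at 1.43 and Egr2 at -1.79. The median log2 ratios of these lists were 0.16 and -0.36, against -0.21 over all genes tested.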

How the data were processed

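Single eGFP+ CD4+ T cells were sequenced by SMART-seq2 without molecular identifiers. Per the study's methods the authors used the aligner STAR with 2 passes, and the deposited values are raw read counts per gene. The counting tool and annotation are not given in the sources used here, and the builds named in the methods and in the submitters' processing notes differ, so no position is taken from the counts. Each sample was 1 cell, and no animal was named.

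Cells more than 3 median absolute deviations below the tissue median in log reads (limits 170584 in the small intestine and 161898 in the spleen) or log genes were removed. The program cyclone (scran 1.30.0) then assigned phases, and only G1 cells stayed in, that is 137 of 190 from the small intestine and 399 of 574 from the spleen (132, 145 and 122 by set). Kept cells had 162801 to 622997 reads. CPM was computed from the counts without the reporter row (0.00979% of reads). Log2 ratios compare means over cells and have no test. A pseudocount of 1 CPM understates changes of low genes. Shares are given with 95% exact (Clopper-Pearson) intervals, and for 0 cells with a limit of 3 cells. No doublet caller was run on these sorted single cells, and cells with the most genes were left out as an alternative. Scaling alternatives came from edgeR 4.0.16 (TMM) and DESeq2 1.42.0 (size factors). The ratio code was tested on simulated data.

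The members and lists were chosen with earlier results of these data known. Named genes are all members, called ligands and receptors of the lists, a list of 21 genes compared between cells with and without a ligand, and the 5 genes with the highest mean rho. Single genes of the lists of transcription factors and early response genes, the neighbouring chemokine genes and the partners of the rare ligands were chosen after their values were seen. Not every gene of the lists is reported here.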

Additional observations from a re-analysis of the deposited data

Results flagged for a closer look

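The cells left out of the comparisons also held ligand transcripts above the limit that 0 cells allow. Among cells called S or G2M (17.9% of all small intestine and 25.1% of all spleen cells), Ccl5 was at 10 or more reads in 70.6% and 25% of small intestine and spleen cells, Ccl4 in 55.9% and 23.6%, Ccl3 in 32.4% and 22.2% and Csf1 in 23.5% and 29.9%. The mean Ccl5 level of these small intestine cells was 4989 CPM, below the 12030 CPM of the kept cells. Ccl1 was in 2.78% of the spleen cells called S or G2M (4 cells).

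Among cells with low read totals (19 and 31 cells), Ccl5 was in 57.9% and 29.03% of small intestine and spleen cells, Ccl4 in 42.1% and 29.03% and Ccl3 in 21.1% and 22.6%. Csf1 was in 19.4% of these spleen cells. Xcl1, without a read in the kept small intestine cells, averaged 3.89 CPM in the small intestine cells with low totals, with 0 cells at 10 reads.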

How the results depend on the processing

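Ccl5 was called higher under all 16 alternatives for ratios, with log2 ratios from 2.53 to 3.88. A 2nd call was Ccl4, when the spleen was limited to p2 cells (2 ligands called higher, 0 lower). The calls of lower ligands moved most. Ccl1 and Ccl3 (2 ligands) were called lower over all cells and over cells without a Foxp3 read, and Ccl3 and Csf1 (2 ligands) without the 5 highest cells of each gene, where the ratio of Ccl1 was -0.75. With p1 columns 1 to 12 alone, a set chosen after the data were seen, as was p1 columns 13 to 24, Csf1 was the ligand called lower, and Ccl3 was without cells with a marker of another lineage. The percent of all genes called lower was 9.84% with a pseudocount of 10 CPM and 28.2% without the 5 highest cells of each gene, and the median log2 ratio was then -0.50. TMM and DESeq2 scaling changed no call of a ligand. At a limit of 1 read, the mean number of ligands per cell was 2.49 in the small intestine and 1.98 in the spleen, and 85.4% and 59.6% of cells had 2 or more. At 50 reads the small intestine mean was 1.68. Among p2 spleen cells the mean was 0.689 and the share with 2 or more 18.03%. The cause of these changes was not tested. Over all 29 results, 54 values moved beyond their limit. This was a spread or interval, or a fixed factor for numbers and percents of genes called. Small intestine shares could not move where only spleen cells were limited. Changes of sign were counted for Ccl5 and Ccl1 only, with 0 found, and Ccl1 without a small intestine read could not become positive. With the spleen limited to p2, the ratio of Csf1 went from -0.73 to 0.47 and that of Csf2 from -0.08 to 1.81. No paired analysis was possible because cells are numbered in accession order only and no result comes from a test. Reads without molecular identifiers and the lack of replicates limit all values to these cells.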

Other observations

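The few cells with Ccl1 were not of 1 kind. Of the 8 spleen cells, 8 had 10 or more Il10 reads, 7 Ccr8, 6 Csf1, 6 Havcr2, 5 Gata3 and 4 Ifng. Il5, a type 2 cytokine, was in 2 of the 8 (3691 and 3180 reads, in the cells with 3028 and 16 Ccl1 reads) and in 2.05% of the other spleen cells. Both of these cells had reads of Il1rl1, the interleukin-33 receptor gene, and of Gata3, and had no Ifng or Ccl3 read. Another cell with 844 Ccl1 reads had 1092 Ifng and 2412 Ccl3 reads, but also 59 Il1rl1 and 13 Gata3 reads. The cells with 3028, 2103 and 844 Ccl1 reads had 4440, 5476 and 5127 genes, against a median of 3292 in kept spleen cells. Whether they were doublets was not tested. These partner genes were chosen after their values were seen, and 8 cells allow no comparison.

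All 3 spleen cells with Xcl1 had Ccl5 and Nkg7, and none had 10 reads of the natural killer cell genes Ncr1 or Klrb1c. Of the 3 spleen cells with Csf2, 2 had Il17a, which was in 0.253% of the other spleen cells.

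Shares of positive spleen cells were highest among the cells with the most reads. When the cells were put into 3 equal bins from the fewest reads to the most, the shares were 18.05%, 17.3% and 40.6% for Ccl5, 20.3%, 18.05% and 34.6% for Ccl4, 15.04%, 14.3% and 26.3% for Ccl3 and 22.6%, 23.3% and 32.3% for Csf1. The intervals of the first and the last bin overlapped for Ccl3, Ccl4 and Csf1. For Ccl5 in the small intestine the shares were 84.8%, 71.1% and 76.1%.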
